A study of Homo sapiens with 4 samples.

Results

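Cytotoxic granule genes were examined in SUP-M2, an established human line of anaplastic large cell lymphoma, a T cell lymphoma, with an active ALK kinase fusion. The 10 genes were taken by symbol: PRF1, GNLY, GZMA, GZMB, GZMM, CTSC, SRGN, NKG7, SERPINB9 and TIA1, out of 58735 genes in the deposited table. RNA-seq covered 4 libraries, 2 with a scrambled short hairpin RNA (shscramble) and 2 with a short hairpin RNA against GOLM1 (shGOLM1), which encodes a Golgi membrane protein. The genotype label names the shGOLM1 samples a knockout, although a hairpin lowers a transcript without removing the gene, and no label gives the hairpin sequence, the vector or the time after its delivery. The series title places GOLM1 in the survival of this lymphoma through BCL-XL, and the comparison asked how RNA levels differed when GOLM1 was lowered.

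Cytotoxic lymphocytes store a pore-forming protein, perforin, and a set of serine proteases, the granzymes, in secretory lysosomes packed around the proteoglycan serglycin. On contact with a target cell the granules fuse with the membrane, perforin opens the way and the granzymes enter and trigger cell death. Anaplastic large cell lymphoma cells often carry such granule proteins, and TIA1, granzyme B and perforin are used as markers of that phenotype in diagnosis.

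The libraries held 27544171 to 31972153 counts. Levels are given as CPM, which are counts relative to each library's total after that total is scaled by trimmed mean of M values (TMM), and a count of 0 allowed up to 3 counts, or 0.0864 to 0.132 CPM, for counting error only. GOLM1 itself was at 211.6 and 213.1 CPM in shscramble, against 69.5 and 69.4 CPM in shGOLM1, so both shGOLM1 libraries carried less of the targeted transcript (log2 fold change -1.61, SE 0.27, edgeR adjusted p = 0.42). The shGOLM1 libraries stood far apart, with a coefficient of variation between replicates of 70.1% against 9.34% in shscramble, and each result is therefore given for both of them. Nothing in the labels says that replicates were separate cultures, and the p-values speak only of how these libraries varied, a spread that may be technical. All 6 lymphoma markers examined (TNFRSF8, ALK, IL2RA, MUC1, BATF3 and IL1RAP) reached 1 CPM in every library. Some were lower in shGOLM1 replicate 2, the library with the lowest GZMB: TNFRSF8, which encodes CD30, was at 634 and 614 CPM in shscramble, 538 CPM in shGOLM1 replicate 1 and 88.3 CPM in replicate 2. ALK was at 340 and 316 CPM against 327 and 170 CPM, and BATF3 at 210 and 179 CPM against 108 and 87.8 CPM. The other lymphoma markers were above both shscramble libraries in replicate 2. IL2RA was at 475 and 469 CPM in shscramble, against 345 and 598 CPM in shGOLM1. IL1RAP was at 142 and 156 CPM against 274 and 174 CPM, and MUC1 at 38.7 and 41.6 CPM against 136 and 50 CPM. The part of these differences in the granule gene results was not tested. Of 11 T cell markers, 5 reached 1 CPM in each library, though not always the same 5. In shGOLM1 replicate 1, CD3D was at 0.547 CPM and CD7 at 1.53 CPM. CD4 was the most abundant, at 182 and 180 CPM in shscramble against 307 and 379 CPM in shGOLM1, with CD247 at 24.8 to 87.5 CPM. CD4, CD247, CD2 and TRAC were higher in both shGOLM1 libraries, while CD3D and CD7 went in opposite directions in them. Their part in the granule gene results was not tested. CD3G and CD8A had 0 counts throughout and CD3E had 1 count in all, while CD8B had 0 to 7 counts per library. Of 6 natural killer cell markers, KLRD1 and KLRF1 had 0 counts in every library. In bulk RNA, fewer expressing cells and less RNA per cell cannot be told apart.

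PRF1, which encodes perforin, was the granule gene with the largest difference, low in shscramble and abundant in both shGOLM1 libraries. GZMB, its usual partner, went in opposite directions in the shGOLM1 libraries, SRGN was higher in both but mostly in replicate 2, CTSC was lower in both, and TIA1 overlapped between the groups. NKG7 was higher in both at a low level, and GNLY, GZMA, GZMM and SERPINB9 stayed at or close to 0.

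**Figure D1:**
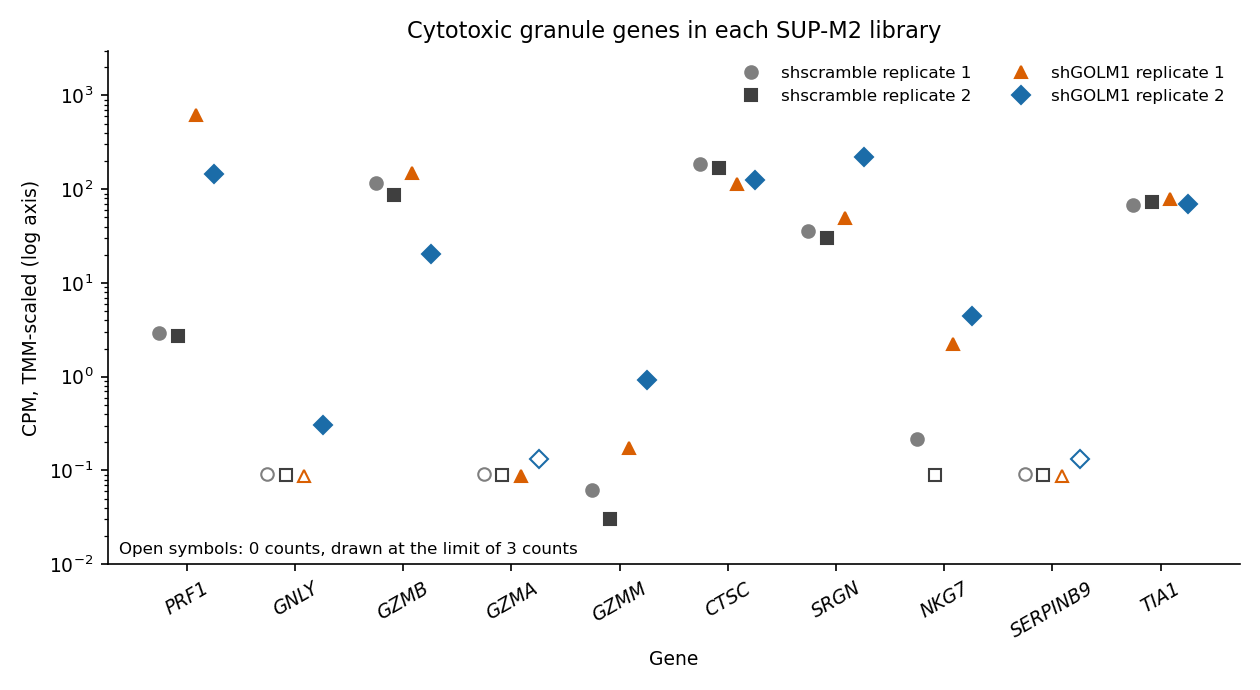
Each symbol is the TMM-scaled CPM (log axis) of a granule gene in 1 library, and open symbols mark libraries with 0 counts, drawn at the limit of 3 counts. PRF1 lies at 2.91 and 2.71 CPM in shscramble, against 620.1 and 144.5 CPM in shGOLM1, whereas the 4 TIA1 symbols lie between 68.4 and 78.1 CPM.

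PRF1 (ENSG00000180644, GRCh38, chromosome 10, 70597348 to 70602775, minus strand) counted 95 and 90 reads in shscramble, against 21530 and 3295 in shGOLM1 replicates 1 and 2. These were 2.91 and 2.71 CPM against 620.1 and 144.5 CPM, so the lower shGOLM1 library was far above both shscramble libraries. Ranked by level among all genes, PRF1 was number 10148 by its shscramble mean, number 168 in shGOLM1 replicate 1 and number 1384 in replicate 2. Set against the shscramble mean, it was 220.9-fold higher in replicate 1 and 51.5-fold higher in replicate 2. The group means were 2.81 ± 0.145 CPM (SD, n = 2) for shscramble against 382.3 ± 336 CPM (SD, n = 2) for shGOLM1. The shGOLM1 libraries thus differed 4.29-fold from each other, while the shscramble libraries differed 1.08-fold.

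The log2 fold change of PRF1 was 7.09 (SE 0.96), which did not pass edgeR's quasi-likelihood test over all genes (adjusted p = 0.42). That test called 0% of 14166 genes, with 1668 genes (11.8%) at an unadjusted p under 0.05, and limma-voom also called 0. With DESeq2, PRF1 passed at an adjusted p of 1.09e-18, where 533 genes (3.76%) were called. In edgeR without a filter on low counts it passed at an adjusted p of 4.57e-05 (0.759% of genes called), and with the replicate number as a block at 2.01e-12 (1.43% called). It also passed in edgeR with either shscramble library left out, at adjusted p of 0.0104 and 0.0103, in fits that called 0.139% and 0.126% of genes. With 1 shGOLM1 library against the shscramble pair, PRF1 passed in edgeR at an adjusted p of 2.73e-21 for replicate 1 and 4.36e-14 for replicate 2. Those fits called 44.5% and 67.4% of all genes and compare libraries, since the lone library is assumed to vary like the shscramble pair. In the authors' deposited table, PRF1 has the smallest p-value of all 23642 genes with a test, 2.66e-24, with an adjusted p of 4.21e-20 and a log2 fold change of 7.06, and 2.28% of genes there have an adjusted p under 0.05. Across the 11 alternatives computed here, the log2 fold change of PRF1 ran from 5.64 to 7.77 and the adjusted p from 2.73e-21 to 0.489, with 7 of 11 passing. By log2 fold change, PRF1 was number 70 of the 14166 tested genes. An exact permutation test of 2 libraries against 2 cannot go below a two-sided p of 0.333.

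The stretches upstream of PRF1, GZMB and NKG7 are shown because PRF1 and NKG7 lay above shscramble in both shGOLM1 libraries while GZMB, the partner of PRF1 in the granule, did not. They are the 250 bases before the RefSeq start site (GRCh38.p14), written 5′ to 3′ on the gene's own strand, at chr10:70602742-70602991, chr14:24634191-24634440 and chr19:51372655-51372904, all on the minus strand. Capitals mark matches, on either strand, to short motifs of factors active in T cells.
PRF1: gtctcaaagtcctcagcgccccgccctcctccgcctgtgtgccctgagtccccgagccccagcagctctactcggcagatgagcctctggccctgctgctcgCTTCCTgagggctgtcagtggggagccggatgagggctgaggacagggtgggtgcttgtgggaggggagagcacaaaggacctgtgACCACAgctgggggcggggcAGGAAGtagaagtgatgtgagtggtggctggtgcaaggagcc
GZMB: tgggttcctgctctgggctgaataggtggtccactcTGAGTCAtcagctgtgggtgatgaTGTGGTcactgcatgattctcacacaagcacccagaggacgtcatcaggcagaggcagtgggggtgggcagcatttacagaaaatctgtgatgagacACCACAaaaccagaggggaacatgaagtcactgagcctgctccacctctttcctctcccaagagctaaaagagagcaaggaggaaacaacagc
NKG7: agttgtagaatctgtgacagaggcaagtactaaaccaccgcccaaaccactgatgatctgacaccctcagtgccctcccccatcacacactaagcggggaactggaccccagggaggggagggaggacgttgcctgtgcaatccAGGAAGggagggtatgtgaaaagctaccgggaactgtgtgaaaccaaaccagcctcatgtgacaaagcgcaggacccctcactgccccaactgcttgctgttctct

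The letters searched were TGTGGT for RUNX factors, AGGAAG for ETS factors, GGTGTGA for T-box factors, TTCNNNGAA for STAT factors, TGANTCA for AP-1 and ACGTG for the hypoxia response, and no matches overlapped within these 3 stretches. The PRF1 stretch holds 1 RUNX match beginning 62 bases before the start and 2 ETS matches beginning 148 and 42 bases before it. The GZMB stretch holds 2 RUNX matches, beginning 190 and 93 bases before the start, and 1 AP-1 match beginning 214 bases before it. The NKG7 stretch holds 1 ETS match beginning 106 bases before the start. Over 35116 RefSeq stretches of the same length, 11% held the RUNX letters, 28.7% the ETS letters and 6.57% the AP-1 letters. The T-box letters were in 2.76% of all stretches, the STAT letters in 6.57% and the hypoxia letters in 18.5%, and PRF1, GZMB and NKG7 held none of these. The RUNX letters were also in the stretches of GNLY and GZMA, beginning 62 and 54 bases before the start. These members had at most 7 and 3 counts in any library. A match describes the letters only. Of the 10 members, 8 had an entry in this table, and SRGN and GZMM did not.

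GNLY, the other pore-forming member, encodes granulysin, which attacks microbial membranes. GNLY (ENSG00000115523, chromosome 2, 85685175 to 85698854) was at 0 counts in 3 libraries, and shGOLM1 replicate 2 had 7 counts (0.307 CPM). No fold is given, because it rests on a single library at a few counts.

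Among the granzymes, GZMB was the only member above 1 CPM in any library, and its levels did not separate the groups. Granzyme B is the protease that cleaves after aspartate and activates caspases in the target cell. GZMB (ENSG00000100453, chromosome 14, 24630954 to 24634267, minus strand) was at 117.7 and 86.2 CPM in shscramble, at 149.1 CPM in shGOLM1 replicate 1 and at 20.4 CPM in replicate 2. The shGOLM1 libraries lay on either side of the shscramble pair, 1.46-fold above its mean in replicate 1 and 5-fold below it in replicate 2. Means were 102 ± 22.2 CPM and 84.8 ± 91 CPM (SD, n = 2 each), and edgeR gave a log2 fold change of -0.26 (SE 0.95, adjusted p = 0.921). Taken alone against the shscramble pair, replicate 1 gave a log2 fold change of 0.53 (adjusted p = 0.00323 in edgeR) and replicate 2 gave -2.37 (adjusted p = 7.12e-09 in edgeR), the smallest in a range of adjusted p up to 1 over its 11 alternatives. These single-library fits called 44.5% and 67.4% of all genes. The library with the lower GZMB was also the one with the lower PRF1 of the shGOLM1 pair.

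GZMA (ENSG00000145649, chromosome 5, 55102648 to 55110252), a granzyme with trypsin-like specificity, had 0 counts in 3 libraries and 3 counts in shGOLM1 replicate 1, which is at the limit of detection. GZMM (ENSG00000197540, chromosome 19, 544034 to 549924), a granzyme typical of natural killer cells, had 2 and 1 counts in shscramble, against 6 and 21 in shGOLM1. The ratio of its summed counts per scaled total was 10.3, with an exact 95% counting interval from 3.17 to 53.1, which covers counting error and not the spread between libraries. Of its 27 counts in shGOLM1, 21 came from replicate 2, at 0.921 CPM against 0.173 CPM in replicate 1. GZMA, GZMM and GNLY were below the filter on low counts and were not tested with all 4 libraries. Without that filter they had, in the same order, adjusted p of 0.783, 0.517 and 0.707 in edgeR.

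The order of PRF1 and GZMB differed between the groups, in CPM and also when levels were scaled by the gene length in the deposited table. In CPM per kilobase, GZMB was at 83.4 and 61.1 and PRF1 at 1.15 and 1.07 in shscramble, so GZMB stood 72.6-fold and 57.3-fold above PRF1. In shGOLM1 replicate 1, PRF1 was at 244.7 and GZMB at 105.7 CPM per kilobase, and in replicate 2 they were at 57 and 14.5. PRF1 was therefore 2.32-fold and 3.94-fold above GZMB in these libraries. The difference of order held in both shGOLM1 libraries although their levels of both genes were unlike, and it was not tested as a ratio.

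**Figure D2:**
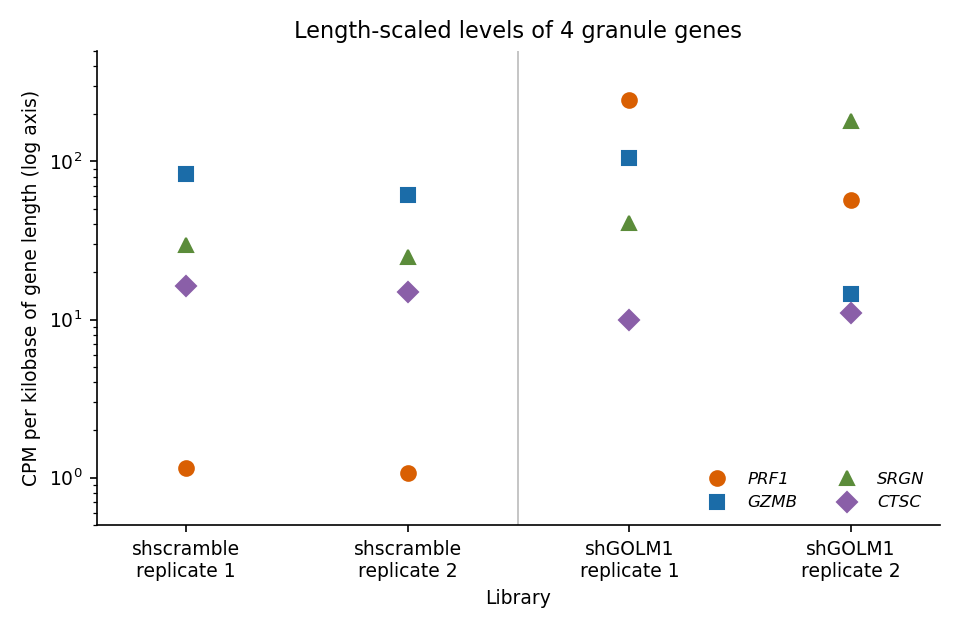
Each symbol is the level of a gene in 1 library, in TMM-scaled CPM per kilobase of gene length (log axis). PRF1 is the lowest of the 4 genes in both shscramble libraries, at 1.15 and 1.07, the highest in shGOLM1 replicate 1 at 244.7, and second to SRGN in replicate 2 at 57.

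The genes for activating and packing granzymes, CTSC and SRGN, were expressed in every library. CTSC encodes cathepsin C, also called dipeptidyl peptidase I, which removes the propeptide that keeps granzymes inactive. CTSC (ENSG00000109861, chromosome 11, 88293592 to 88337787) was at 185.3 and 170.2 CPM in shscramble, against 114.1 and 125.1 CPM in shGOLM1. Both shGOLM1 libraries were lower and close to each other, at 119.6 ± 7.82 CPM against 177.8 ± 10.7 CPM (SD, n = 2 each). The log2 fold change was -0.57 (SE 0.27), at an edgeR adjusted p of 0.473 and a DESeq2 adjusted p of 0.66. It was negative in all 11 alternatives, between -0.68 and -0.45, with adjusted p from 0.000106 to 1. Each shGOLM1 library alone passed edgeR's test as lower, at adjusted p of 0.000106 for replicate 1 and 0.000393 for replicate 2, in fits that called 44.5% and 67.4% of all genes with the spread taken from the shscramble pair alone.

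SRGN encodes serglycin, the proteoglycan core on which perforin and granzymes are stored. SRGN (ENSG00000122862, chromosome 10, 69088106 to 69104811) was at 36.1 and 30.1 CPM in shscramble, at 49.5 CPM in shGOLM1 replicate 1 and at 220 CPM in replicate 2. Both shGOLM1 libraries were higher, but the excess was 1.49-fold in replicate 1 and 6.64-fold in replicate 2, the reverse of the order seen for PRF1 and GZMB. Means were 33.1 ± 4.25 and 134.7 ± 121 CPM (SD, n = 2 each), and the log2 fold change was 2.02 (SE 0.78), at an edgeR adjusted p of 0.424 and a DESeq2 adjusted p of 0.11. Without replicate 2 the log2 fold change was 0.56 (adjusted p = 0.00159 in edgeR), and without replicate 1 it was 2.68 (adjusted p = 2.04e-11 in edgeR), the smallest in a range up to 1, where such fits called 44.5% and 67.4% of all genes. SRGN and PRF1 are on the same arm of chromosome 10, 1.49 megabases apart, with PRF1 more abundant in replicate 1 and SRGN in replicate 2.

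NKG7, a membrane protein of granules that takes part in their release, was rare in every library. NKG7 (ENSG00000105374, chromosome 19, 51371606 to 51372715) counted 7 and 0 reads in shscramble, against 77 and 101 in shGOLM1, or 0.214 and 0 CPM against 2.22 and 4.43 CPM. Both shGOLM1 libraries lay above both shscramble libraries, with a ratio of summed counts per scaled total of 29.1 and an exact 95% counting interval from 13.9 to 73.5. The log2 fold change was 4.91 (SE 1.46) with an edgeR adjusted p of 0.42. It was 9.63 without shscramble replicate 1, which leaves a control library at 0 counts, and 3.88 without shscramble replicate 2. Its adjusted p was 0.00326 in DESeq2 and 0.0188 in edgeR with the replicate block, in a range from 1.1e-05 to 1 over 10 alternatives, of which 4 passed. NKG7 passed the filter on low counts only through shGOLM1, so its place among the tested genes already required a difference. The authors' deposited table gives it a log2 fold change of 4.93 and an adjusted p of 0.00194.

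SERPINB9 (ENSG00000170542, chromosome 6, 2887266 to 2903280), the cytosolic inhibitor that protects granule-bearing cells from their own granzyme B, had 0 counts in all 4 libraries. Its level was thus below 0.0864 to 0.132 CPM throughout, also in shGOLM1 replicate 1 with GZMB at 149.1 CPM. TIA1, an RNA-binding protein first described in cytotoxic granules and active in stress granules in most cell types, was at 68.4 and 73.3 CPM in shscramble, against 78.1 and 70 CPM in shGOLM1. The groups overlapped, at 70.9 ± 3.48 and 74 ± 5.74 CPM (SD, n = 2 each), and the log2 fold change was 0.06 (SE 0.27, adjusted p = 0.937 in edgeR). TIA1 (ENSG00000116001, chromosome 2, 70209444 to 70248660) differed 1.12-fold between the shGOLM1 libraries, the pair in which PRF1, GZMB and SRGN differed more than 4-fold. TIA1 shares part of its locus with C2orf42 on the same strand, which had 94 to 293 counts, and reads from the shared stretch are not assigned with certainty.

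**Figure D3:**
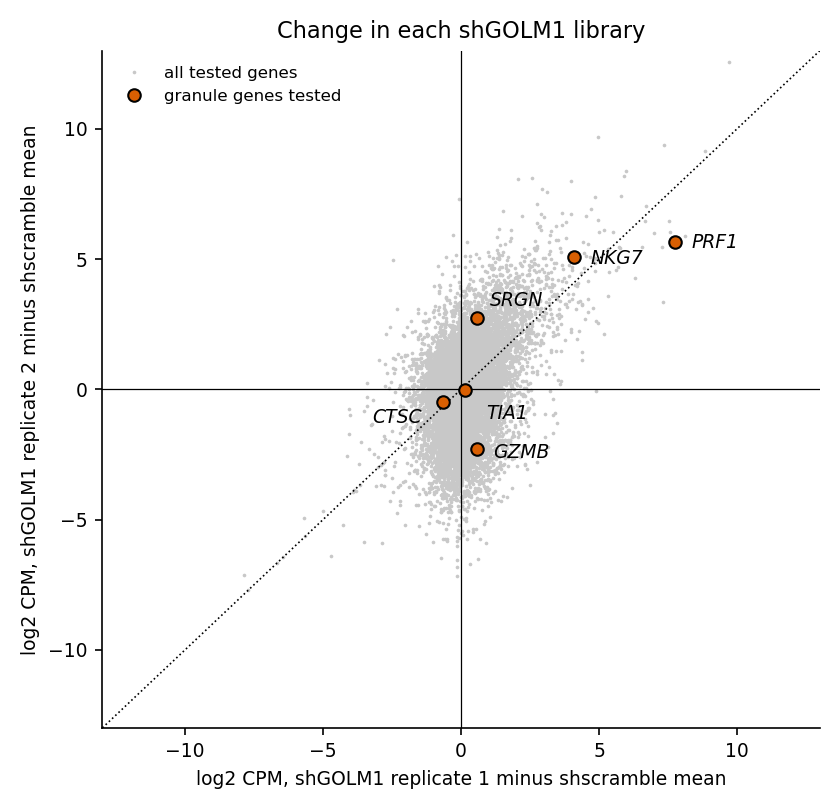
Each grey point is a tested gene and each orange point a granule gene, placed by its log2 CPM in shGOLM1 replicate 1 (horizontal) and replicate 2 (vertical) minus the shscramble mean, with the dotted line at equal change. PRF1 lies at 7.75 and 5.65 and NKG7 at 4.08 and 5.06, GZMB lies at 0.57 and -2.3, and CTSC and TIA1 lie near the dotted line.

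Counted over the members, 6 of 10 passed the filter on low counts. Both shGOLM1 libraries were above both shscramble libraries for PRF1, SRGN and NKG7, where 25.2% of all 14166 tested genes were, and below them for CTSC, where 26.5% were. GZMB and TIA1 overlapped. The median log2 fold change was 1.04 over these 6 members and 0.05 over all tested genes, as a description only. NKG7 is in that median and among the higher members although it passed the filter only through shGOLM1. The members below the filter are in neither. DESeq2 called 2 of the 10, PRF1 and NKG7, where it called 3.76% of all genes. The replicate block called the same pair, with 1.43% of all genes called, and edgeR without a filter called PRF1 only, with 0.759% called. Against the shscramble pair, shGOLM1 replicate 1 alone gave edgeR log2 fold changes of 7.77 for PRF1, 4.32 for NKG7 and 0.56 for SRGN. They were 0.53 for GZMB, 0.12 for TIA1 and -0.66 for CTSC. Replicate 2 alone gave 5.64 for PRF1, 5.28 for NKG7 and 2.68 for SRGN. There they were -2.37 for GZMB, -0.07 for TIA1 and -0.55 for CTSC. Replicate 2 alone also gave 4.17 for GZMM, which was not tested with all 4 libraries. NKG7 and GZMM entered these fits only through the shGOLM1 library, so their place there already required a difference.

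The wider cytotoxic pathway was examined in 7 lists holding 101 genes, of which 66 were tested and 0 passed edgeR's test over all genes. DESeq2 called 5 of them (ZEB2, PRDM1, IKZF3, CTSS and CST3), all with a positive log2 fold change, where it called 3.76% of all 14166 genes. The counts of each list are to be read against the 25.2% of all tested genes that were higher in both shGOLM1 libraries without overlap and the 26.5% that were lower.

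Transcription factors of cytotoxic lymphocytes were expressed in part. Of 16 tested, 8 lay above both shscramble libraries in both shGOLM1 libraries, 3 were lower (BATF, EOMES and GATA3) and 5 overlapped, with a median log2 fold change of 0.37. ZEB2, a repressor linked to terminal effector cells, was at 1.72 and 1.56 CPM in shscramble, against 25.8 and 17.9 CPM in shGOLM1. Its log2 fold change was 3.73 (SE 0.44), and edgeR's adjusted p was 0.42. It passed in DESeq2 (adjusted p = 8.14e-09) and with the replicate block in edgeR (adjusted p = 0.00258), in a range from 1.09e-12 to 1. PRDM1 encodes BLIMP1, a repressor active in effector T cells and plasma cells. PRDM1 was at 31.1 and 31.3 CPM against 127 and 86.2 CPM (log2 fold change 1.77, edgeR adjusted p = 0.42). Its DESeq2 adjusted p was 0.0152, in a range from 5.94e-12 to 1. ZEB2 and PRDM1 shared with PRF1 a higher level in replicate 1 than in replicate 2. That order is not particular to them, since CTSS and CD226 of other lists had it too. BATF, an AP-1 family factor of effector T cells, was lower in both, at 80.7 and 74.6 CPM against 34.3 and 37 CPM (adjusted p = 0.42 in edgeR). BHLHE40 was at 177 and 179 CPM against 283 and 1400 CPM, with the larger excess in replicate 2. The next factors were picked after their values were seen, as known regulators of perforin and granzyme genes. TBX21, which encodes T-bet, had 0 counts in 3 libraries and 2 counts in shGOLM1 replicate 1. EOMES was at 21.8 and 25 CPM in shscramble, against 19.1 and 1.18 CPM in shGOLM1, and RUNX3 was at 59.6 and 58.6 CPM against 73.5 and 19 CPM. EOMES and RUNX3 were thus lowest in shGOLM1 replicate 2, where GZMB was also lowest but PRF1 was at 144.5 CPM. Among other factors of the list, also picked after their values were seen, GATA3, LEF1 and IRF4 were lowest there. BCL6, ID2, NFIL3 and BHLHE40 were highest there, and a link of any factor to GZMB or PRF1 was not tested. IKZF3 was at 1.41 and 1.44 CPM in shscramble, at 44.3 CPM in shGOLM1 replicate 1 and at 1.36 CPM in replicate 2, so its DESeq2 call rests on a single library.

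Genes for granule biogenesis, docking and exocytosis were nearly all present, with 22 of 24 tested. Of these, 5 were higher in both shGOLM1 libraries (AP3B1, STXBP2, SYTL3, VAMP2 and VAMP4), 4 were lower, among them AP3D1, KIF5B and UNC13D, and 13 overlapped, with a median log2 fold change of 0.19. In the 4 with the smallest p the excess was mostly in replicate 2. VAMP2, a vesicle fusion protein, was at 13 and 16.3 CPM in shscramble, 17 CPM in shGOLM1 replicate 1 and 148 CPM in replicate 2. STXBP2, which encodes Munc18-2, a partner of syntaxin 11 in granule release, was at 35.1 and 30.6 CPM against 40.8 and 153 CPM. VAMP4 was at 12.6 and 12.1 CPM against 15 and 77.1 CPM, and SYTL3, a partner of Rab27, at 105 and 104 CPM against 117 and 335 CPM. Their adjusted p ran from 0.448 to 0.486 in edgeR, and without replicate 2 from 0.0772 to 0.361, so none passed in replicate 1 alone.

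Proteases and their inhibitors outside the members had a median log2 fold change of 0.70 over 9 tested, with 4 higher in both shGOLM1 libraries (CST3, CTSD, CTSH and CTSS), SERPINB8 lower in both and 4 overlapping. CTSS, a lysosomal cysteine protease of antigen-presenting cells, was at 1.19 and 1.2 CPM in shscramble, against 18.1 and 11.2 CPM in shGOLM1. Its log2 fold change was 3.61 (SE 0.49), and edgeR's adjusted p was 0.42. It passed in DESeq2 (adjusted p = 4.65e-07) and with the replicate block in edgeR (adjusted p = 0.00963), in a range from 1e-11 to 1. CST3, a secreted inhibitor of cysteine proteases, was at 27.1 and 25.2 CPM against 52.1 and 228 CPM (edgeR adjusted p = 0.42, DESeq2 adjusted p = 0.0317, in a range from 2.14e-12 to 1). SERPINB8, an intracellular serpin, was at 52.2 and 54.8 CPM against 22.9 and 34.7 CPM (adjusted p = 0.424 in edgeR), and CTSD was at 22.6 and 20.4 CPM against 30 and 39.7 CPM.

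Of the other granule cargo genes, CALR, LAMP1, LAMP2 and HOPX were well expressed in every library and the rest were below 1 CPM. Of 10 genes, 5 were tested, CALR, LAMP2 and GZMK were higher in both shGOLM1 libraries, 0 were lower, HOPX and LAMP1 overlapped, and the median log2 fold change was 0.18. LAMP2, a lysosomal membrane protein, was at 166 and 171 CPM against 223 and 290 CPM (adjusted p = 0.481 in edgeR). LAMP1, whose surface exposure marks degranulation, was at 172 and 158 CPM against 221 and 152 CPM. GZMK, the granzyme gene beside GZMA, had 1 and 2 counts in shscramble, against 12 and 17 in shGOLM1, so it was tested only through the group in which it is high. GZMH, the gene beside GZMB, had 3 counts in all. CTSW had at most 1 count per library.

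Death ligands and effector cytokines were mostly low: 3 of 12 were tested, and FASLG, CCL4, CSF2 and XCL1 had 0 counts throughout. IFNG, chosen after its values were seen, had 1 count in shscramble and 39 counts (1.71 CPM) in shGOLM1 replicate 2, with 0 in the other libraries. TNF was at 1.9 and 2.85 CPM in shscramble, against 4.06 and 9.21 CPM in shGOLM1, higher in both (adjusted p = 0.443 in edgeR). TNFSF10, which encodes the death ligand TRAIL, was at 28.1 and 27.9 CPM against 29.4 and 13 CPM and overlapped, and the median log2 fold change of the 3 tested was 1.01. Receptors of natural killer and cytotoxic T cells were likewise sparse, with 2 of 15 tested, at a median log2 fold change of 0.95, and 9 at 0 counts in every library, among them KLRK1, KLRD1 and SLAMF7. CD226, an activating receptor for nectin family ligands, was at 180 and 205 CPM in shscramble, 457 CPM in shGOLM1 replicate 1 and 152 CPM in replicate 2. CD96, a related receptor, was at 7.66 and 5.32 CPM against 11.9 and 18.8 CPM (adjusted p = 0.422 in edgeR). The 6 natural killer markers summed to 0.0306 and 0 CPM in shscramble and to 1.47 and 1.45 CPM in shGOLM1, with NCAM1 at 1.3 and 0.57 CPM and KLRC1 at 0.144 and 0.79 CPM in shGOLM1, and their part in the PRF1 result was not tested.

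Partners of TIA1 in stress granules were all tested, with 2 of 9 higher in both shGOLM1 libraries (ATXN2 and PABPC1), USP10 lower in both and 6 overlapping, at a median log2 fold change of -0.0014. PABPC1, the poly(A)-binding protein, was at 2510 and 2480 CPM in shscramble, against 2560 and 4680 CPM in shGOLM1. CAPRIN1, a core stress granule protein, was at 597 and 634 CPM against 613 and 298 CPM, and UBAP2L at 338 and 356 CPM against 345 and 210 CPM.

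**Figure D4:**
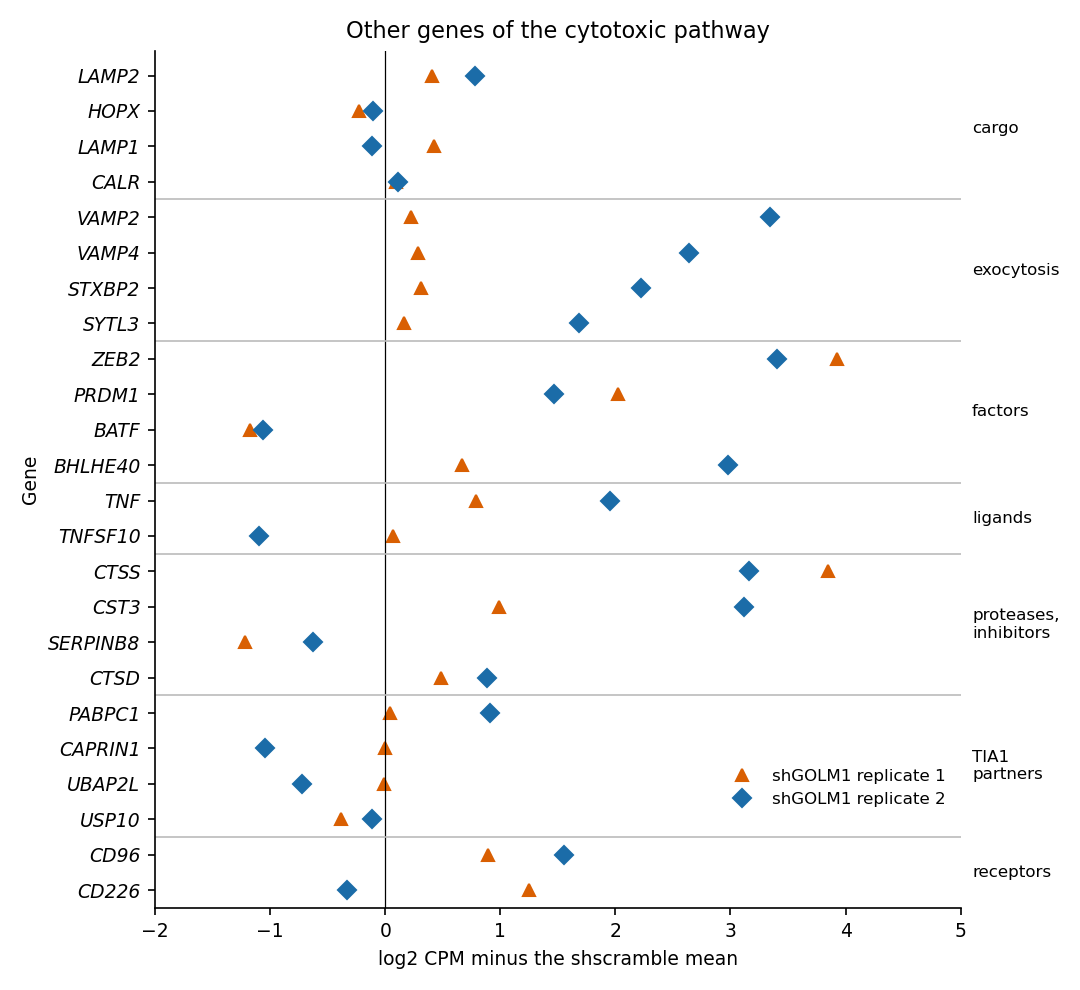
Each row is a named gene of the 7 lists, with its log2 CPM in shGOLM1 replicate 1 (triangles) and replicate 2 (diamonds) minus the shscramble mean, which is the line at 0. ZEB2, PRDM1 and CTSS lie to the right in both libraries and BATF to the left in both, while VAMP2, VAMP4, STXBP2 and SYTL3 lie far to the right in replicate 2 and close to 0 in replicate 1.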

How the data were processed

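RNA-seq of SUP-M2 was deposited as a single table of 4 libraries. Per the labels' protocols, a SMARTER mRNA kit was used on total RNA. Aligner, counting tool and strand setting: not given in the sources used here. Mouse builds stand in the submitters' processing notes, but all 58735 gene identifiers and positions in the table equal those of GENCODE 29 on human GRCh38, and 27 symbols stored as dates were restored from it.

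Per the file headers, the count columns hold raw reads per gene. Deposited FPKM values and the authors' mean signal per group were not used. The log2 fold changes and the p-values, raw and adjusted, that the authors deposited are quoted as theirs, from a tool that is not given.

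Groups came from the sample titles. The test was edgeR 4.0.16's two-sided quasi-likelihood test (R 4.3.3) with TMM factors, the filterByExpr filter and no covariate, adjusted by Benjamini-Hochberg over 14166 genes with a threshold of 0.05. Scaled totals ran from 22797714 to 34718338. Log2 CPM used a prior count of 2. Alternatives were relative log expression factors, unscaled totals, no filter, at least 5 CPM in 2 libraries, a replicate block, each library left out, DESeq2 1.42.0 and limma-voom (limma 3.58.1). Figures used matplotlib 3.10.9. The edgeR and DESeq2 fits were tested on simulated counts for the same genes, with the same spread in both groups, unlike these libraries. At the spread fitted to the 4 libraries, false calls were 1 in edgeR and 28 in DESeq2. There 26% and 36% of 4-fold changes were recovered. At the spread of the shscramble pair, false calls were 14 and 7, with 94% and 88% recovered.

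Members, lists and tests were chosen with earlier results of these data known. Named genes were the members, GOLM1 and, per list, up to 4 genes of at least 1 CPM with the smallest p. For the 2 members with the widest range, the 3 tested genes with the nearest centred log2 CPM profile were named, leaving out clone names, pseudogenes and Y-linked genes. Others are said to be picked after their values were seen. A member of the exocytosis list is counted but not reported here by name.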

Additional observations from a re-analysis of the deposited data

How the results depend on the processing

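The count of genes called depended on the fit. It was 0 in edgeR as planned and also with relative log expression factors, unscaled totals, a minimum of 5 CPM in 2 libraries, and limma-voom. It was 192 with no filter, 203 with the replicate block and 533 in DESeq2, and from 20 to 10290 with a library left out. Among the 10 members, of which 6 passed the filter, the count was 1 with no filter, 2 with the replicate block and 2 in DESeq2. Among the 101 genes of the lists it was 2, 2 and 5, and from 0 to 50 with a library left out. The count of 50 came from the fit without shGOLM1 replicate 1 and is to be read against the 67.4% of all genes called there. Fits with a library left out keep 1 library in a group, so their counts single out neither the lists nor the members. The differences between replicate numbers correlated at -0.098 between the groups. The coefficient of variation was 70.1% in shGOLM1 against 9.34% in shscramble, so this correlation cannot tell whether the numbers pair the libraries. The labels do not say so, and a call under the block is a hint only. GZMB changed sign with a library left out, from -2.37 to 0.53. TIA1 was at -0.0123 with unscaled totals and -0.0111 with no filter, and from -0.0657 to 0.125 with a library left out. PRF1, NKG7 and SRGN stayed higher, and CTSC stayed lower, wherever they were fitted. NKG7 could not be fitted at a minimum of 5 CPM. The cause of these changes was not tested. GNLY, GZMA, GZMM and SERPINB9 are limited by depth.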

Other observations

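The genes nearest to PRF1 on chromosome 10 were silent or nearly so. PALD1, 28899 bases away, had 0 counts in every library, and ADAMTS14, 70028 bases away on the other side, was at 0 in shscramble with 3 and 2 counts in shGOLM1. The high PRF1 counts in shGOLM1 were not seen in the coding genes on either side. GZMB likewise stood alone between GZMH, with 3 counts in all, and STXBP6, with 5 counts in all. Beside SRGN, VPS26A was at 36.6 and 33.5 CPM in shscramble and 31 and 41.4 CPM in shGOLM1. On the other side, KIF1BP was at 10.3 and 11.8 CPM in shscramble and 10.5 and 3.9 CPM in shGOLM1. Neither shared the size of the SRGN excess in replicate 2. Beside NKG7, CLDND2 was at 0.459 and 0.391 CPM in shscramble and 0.374 and 1.1 CPM in shGOLM1, and LIM2 had 0 counts throughout.

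Over the 4 libraries, the tested genes with a profile most like that of PRF1 were EIF5A2, GLI3 and CERNA2, at distances of 0.381, 0.417 and 0.794 in centred log2 CPM among 11855 genes. EIF5A2 was at 0 in shscramble with 352 and 64 counts in shGOLM1, and GLI3 was at 0 in shscramble with 430 and 96 counts in shGOLM1. Their log2 CPM in shscramble was thus set by the prior count of 2, and so their distance to PRF1 depends on it. For NKG7 the nearest were ACTL8, RGS1 and TMPRSS6, at distances of 0.819, 0.949 and 1.07, with RGS1 at 6 and 2 counts against 147 and 193. All these genes had few or 0 counts in shscramble and passed the filter only through shGOLM1. Over 4 libraries such likeness is a description only.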
